A study of Mus musculus with 4 samples.

Results

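The 5 metalloproteinase genes Mmp9, Mmp11, Mmp14, Mmp25 and Adam8 were examined in mouse regulatory T cells (Tregs) sorted with or without a mark of Mll1 deletion. They were taken by name and were 5 of the 282 genes in the deposited table, which listed genes that the authors had selected on the contrast of these same libraries. The values that chose them are therefore the YFP-positive to YFP-negative difference itself, and that difference is described below without a test. Of 23 matrix metalloproteinase genes looked for, 4 were in the table, and of 32 ADAM and ADAMTS genes, 1 was. The other 19 and 31 genes were not analysed here, so nothing below describes either family as a whole.

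The cells were taken from spleen and lymph nodes, from males aged 6 to 8 weeks whose label reads Foxp3RFP-Cre.RosaYFPMll1fl/fl. Both groups thus carry the Foxp3-driven red fluorescent protein with Cre, the YFP reporter at Rosa and the floxed Mll1 alleles. RFP+YFP+ Tregs, in which Cre had acted on the reporter, have the genotype label MLL1KO. RFP+YFP- Tregs, Foxp3-expressing cells of the same floxed mice without the reporter mark, have the genotype label WT. There were 2 libraries per group, under mouse numbers 1 and 2 in each, and whether such a number is 1 animal or a pool is not stated. With 2 libraries a group, the spread measures only these samples. The gene for MLL1, Kmt2a, and 7 defining Treg markers with Foxp3 among them were not analysed here, so neither the deletion nor the cell identity is checked by these values. The study asks how MLL1, a histone H3 lysine 4 methyltransferase, bears on the activation and specialization of Tregs.

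Matrix metalloproteinases (MMPs) are zinc-dependent endopeptidases that cut collagens, laminins and other matrix proteins, and also chemokines, cytokines and surface receptors. They are made as inactive precursors, are opened by other proteases, and are held in check by tissue inhibitors of metalloproteinases (TIMPs). Mmp9 encodes a secreted gelatinase that leukocytes use in crossing basement membranes, and Mmp11 encodes a secreted stromelysin that is activated by furin inside the cell. Mmp14 encodes an MMP with a transmembrane segment, and Mmp25 encodes an MMP held in the membrane by a lipid anchor and best known from neutrophils. Adam8 belongs to the related ADAM family of membrane proteases that shed surface proteins, and is best known from myeloid cells.

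The shared feature of these enzymes is the zinc-binding site of the catalytic domain, in which 3 histidines hold the zinc ion and a glutamate acts in the cut. The coding bases of this site are shown because the 5 genes have the site in common, and to show how the members differ there. They were read from GENCODE M21 transcripts (mm10), 33 bases on the coding strand, with capitals for the codons of the histidines, the glutamate and the glycine between them.
Mmp9 (chr2:164951133-164951165, plus strand, exon 8 of 13): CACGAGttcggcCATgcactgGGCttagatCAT
Mmp11 (chr10:75926931-75926963, minus strand, exon 5 of 9): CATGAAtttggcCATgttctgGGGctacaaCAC
Mmp14 (chr14:54437627-54437659, plus strand, exon 5 of 10): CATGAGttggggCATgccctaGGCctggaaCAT
Mmp25 (chr17:23632843-23632875, minus strand, exon 5 of 10): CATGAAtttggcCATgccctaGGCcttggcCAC
Adam8 (chr7:139987893-139987925, minus strand, exon 11 of 24): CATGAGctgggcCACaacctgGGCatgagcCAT
The site lay within a single exon in every one of the 5 transcripts. The closest pair was Mmp14 and Mmp25, with 26 of 33 bases alike, and the least alike was Mmp11 and Adam8, with 19 of 33. Adam8 shared between 19 and 23 bases with each MMP, whereas the MMPs shared between 23 and 26 among themselves.

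Mmp9, Mmp14, Mmp25 and Adam8 were lower and Mmp11 was higher in YFP-positive Tregs. The 4 lower genes were between 3.94-fold and 11.1-fold lower by their group means, and Mmp11 was 2.78-fold higher. The 2 groups did not overlap in any of the 5 genes. That was so in 100% of the 282 listed genes, of which 69.5% were lower and 30.5% higher, and those genes made up 1.98% of the 14239 genes that the authors' p-values imply were tested. As the members were picked from genes selected on this contrast, nothing is read from these shares. The values are normalized counts, gene reads that the authors divided by a size factor for each library. Log2 fold changes below are YFP-positive over YFP-negative, on the scale log2(normalized count + 1), with the standard error from limma.

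Mmp9 (ENSMUSG00000017737, chr2:164940780-164955850, plus strand), the gelatinase, was counted at 82.2 and 72.1 in the YFP-positive libraries of mice 1 and 2, and at 440.2 and 435.5 in the YFP-negative libraries. Both YFP-positive libraries were far below both YFP-negative ones, and the libraries of each population lay close together. The group means were 77.1 ± 7.11 and 438 ± 3.31 (SD, n = 2 each), a 5.68-fold difference with a log2 fold change of -2.49 ± 0.40 (SE). It was the most even of the 4 lower members, at -2.41 within mouse 1 and -2.58 within mouse 2.

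Adam8 (ENSMUSG00000025473, chr7:139978932-139992562, minus strand), the sheddase, was counted at 95.7 and 171.8 in the YFP-positive libraries and at 758 and 521 in the YFP-negative libraries of mice 1 and 2. Mouse 1 had the lower YFP-positive and the higher YFP-negative value, so the gap was wider in that mouse. The group means were 134 ± 53.8 and 639 ± 167 (SD, n = 2 each), which is 4.78-fold, and the log2 fold change was -2.28 ± 0.38 (SE). Within mouse 1 it was -2.97 and within mouse 2 it was -1.60, or 7.92-fold and 3.03-fold lower.

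Mmp14 (ENSMUSG00000000957, chr14:54431612-54445364, plus strand), the membrane-inserted MMP, was counted at 46.8 and 23.3 in the YFP-positive and at 140.2 and 135.9 in the YFP-negative libraries of mice 1 and 2. The YFP-negative libraries differed little, whereas the YFP-positive values differed 2.01-fold between the mice. The group means were 35.1 ± 16.6 and 138 ± 3.06 (SD, n = 2 each), and the log2 fold change was -2.03 ± 0.51 (SE). Here the gap was wider in mouse 2, at -2.49, than in mouse 1, at -1.56, the opposite order to Adam8.

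Mmp25 (ENSMUSG00000023903, chr17:23628311-23645277, minus strand), the lipid-anchored MMP, was counted at 1.04 and 9.54 in the YFP-positive and at 52.9 and 64.8 in the YFP-negative libraries of mice 1 and 2. It was the scarcest member, and its YFP-positive values stand for 1 and 9 reads, against 54 and 72 reads in the YFP-negative libraries, by the reads inferred from the values. The group means were 5.29 ± 6.01 and 58.9 ± 8.38 (SD, n = 2 each), with a log2 fold change of -3.68 ± 0.75 (SE), the fifth largest fall of 196. The ratio of the pooled reads, scaled by the size factors, was 11.3-fold with an exact 95% binomial interval of 5.92 to 24.1 that covers counting error only. The size rests on the YFP-positive library of mouse 1. Without it the log2 fold change was -2.50, and with a pseudocount of 10 in place of 1 it was -2.22.

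Mmp11 (ENSMUSG00000000901, chr10:75923222-75936496, minus strand), the stromelysin, was counted at 269 and 227 in the YFP-positive and at 88.2 and 90.0 in the YFP-negative libraries of mice 1 and 2. It was the single member with both YFP-positive libraries above both YFP-negative ones. The group means were 248 ± 30.0 and 89.1 ± 1.24 (SD, n = 2 each), with a log2 fold change of 1.46 ± 0.41 (SE), at 1.60 within mouse 1 and 1.32 within mouse 2. In the authors' deposited table Mmp11 was the member nearest to the selection thresholds of 0.05 and 1, with an adjusted p of 0.0204 and a log2 fold change of 1.48. Genes outside those thresholds were not analysed here.

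**Figure D1:**
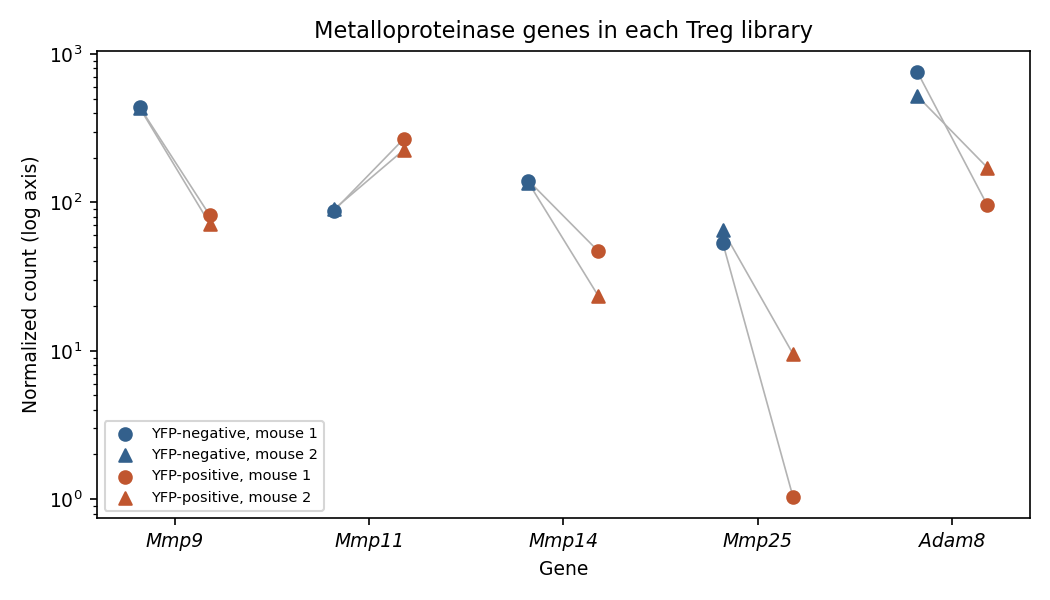
Normalized count (log axis) of each member in the 4 libraries, with YFP-negative Tregs in blue and YFP-positive in orange, circles for mouse 1 and triangles for mouse 2, and lines joining the populations of a mouse number. Lines slope down for Mmp9, Mmp14, Mmp25 and Adam8 and up for Mmp11, and the Mmp25 line of mouse 1 ends at 1.04.

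The Mmp11 count has a neighbour that touches it. Chchd10, which encodes a mitochondrial intermembrane space protein, is the nearest listed gene and lies on the opposite strand (chr10:75933130-75937747), overlapping the Mmp11 gene by 3367 bases. Exons of the 2 genes share 155 bases, which are 5.58% of the Mmp11 exons and 9.84% of the Chchd10 exons, and 1 of the 6 Mmp11 transcripts in GENCODE M21 reaches them. Chchd10 was also higher in YFP-positive Tregs, at 1333 and 1343 against 733 and 505 normalized counts in mice 1 and 2, a log2 fold change of 1.14 ± 0.33 (SE). The strand setting of the counting was not given in the sources used here. Without strand, reads of the 2 genes in the shared bases cannot be told apart, and the part of Chchd10 reads in the Mmp11 count was not tested. None of the other 4 members overlapped a listed gene.

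Sequence shared with other genes was also measured. Each gene's 31-base words were looked for, on either strand, in transcripts of other genes. The share found there was 0% for Mmp9, 0.334% for Adam8, 1.10% for Mmp25, 2.41% for Mmp14 and 4.46% for Mmp11. For Mmp11 the other gene was Chchd10, whose overlap is described above. For Adam8 it was Gm16201, a noncoding gene of the opposite strand that shares 46 exonic bases with Adam8. The shared words of Mmp14 occurred in 908 other genes and those of Mmp25 in 558. The part of other genes' reads in these counts was not tested.

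Set among the 282 listed genes, the 4 lower members each fell by more than the median lower gene, Mmp14 only by little at -2.03. Ranked by log2 fold change among the 196 lower genes, Mmp25 was at place 5, Mmp9 at 39, Adam8 at 59 and Mmp14 at 83. The place of Mmp25 rests on 1 and 9 reads in the YFP-positive libraries, and its log2 fold change was -2.22 with a pseudocount of 10. Mmp11 was at place 63 of the 86 higher genes. The median log2 fold change was -2.39 over the 4 lower members, -1.90 over all lower genes and 1.79 over all higher genes. All of these genes were selected on this contrast, and the 4 were grouped by its sign. Nothing is therefore read from these places and medians.

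**Figure D2:**
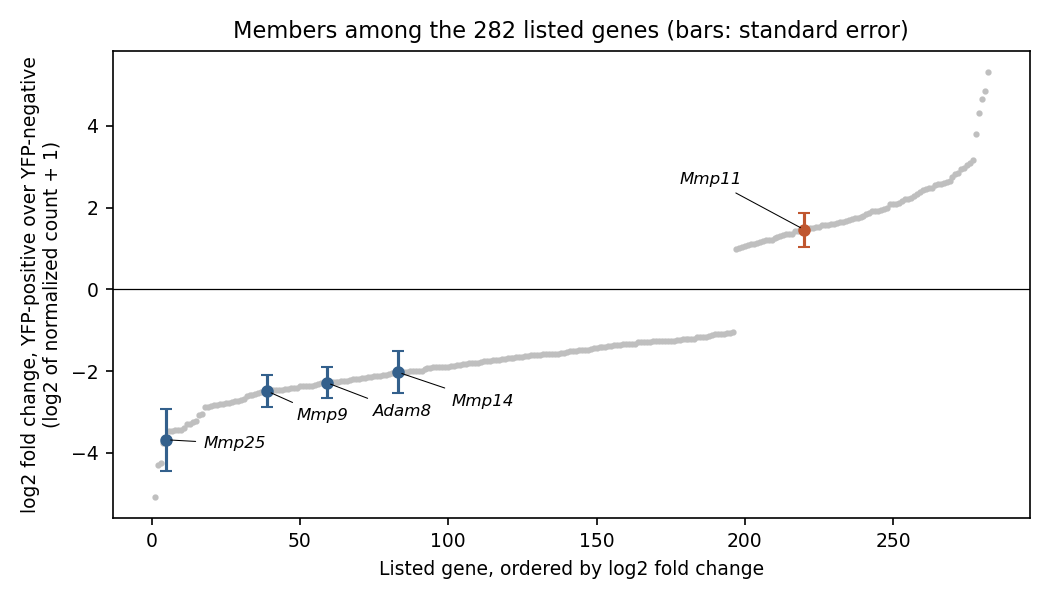
Log2 fold change of the 282 listed genes (vertical axis, YFP-positive over YFP-negative) in order of size (horizontal axis), with the 5 members named and their standard errors as bars. Mmp25 lies at the low end at -3.68, Mmp9, Adam8 and Mmp14 follow between -2.49 and -2.03, and Mmp11 stands among the higher genes at 1.46.

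The difference between mice within a population is given as a description, since the authors' adjusted p, on which the genes were selected, depends on that spread. In YFP-negative Tregs the log2 ratio of mouse 1 to mouse 2 was 0.02 for Mmp9, -0.03 for Mmp11 and 0.04 for Mmp14, against a median absolute ratio of 0.35 over the 282 genes. It was -0.29 for Mmp25 and 0.54 for Adam8. In YFP-positive Tregs it was 0.19 for Mmp9 and 0.25 for Mmp11, under the median absolute ratio of 0.44. Mmp14 at 0.97, Adam8 at -0.84 and Mmp25 at -2.37 were above it, and 99.6% of listed genes had a smaller absolute ratio than Mmp25. In that population mouse 1 was thus the higher for Mmp14 and the lower for Adam8 and Mmp25, and the members did not follow a single mouse. With 1 library per mouse and population these differences have no replicate.

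**Figure D3:**
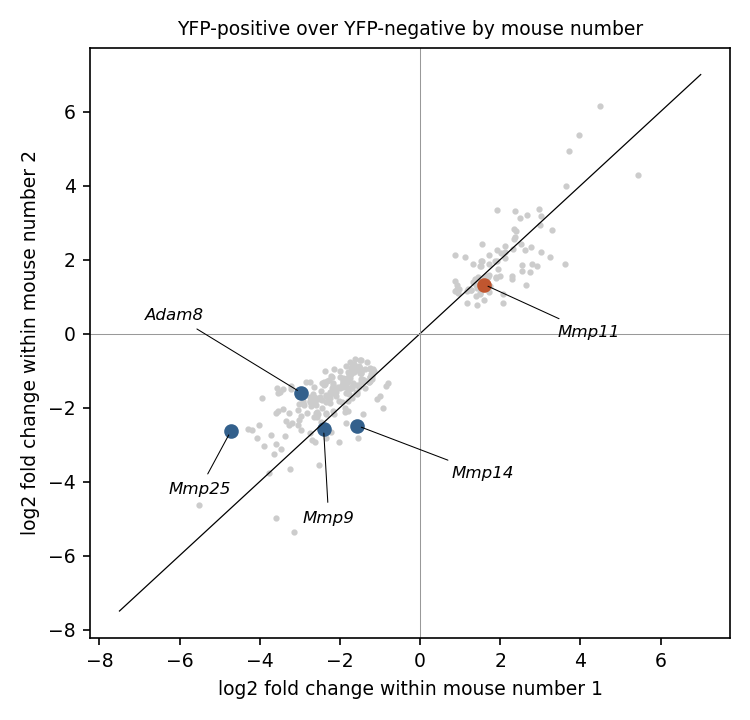
Log2 fold change within mouse number 1 (horizontal axis) against mouse number 2 (vertical axis) for the 282 listed genes in grey and the 5 members in colour, with the line of equal values. Mmp9 and Mmp11 lie near the line, Mmp25 and Adam8 lie on the side of a larger fall in mouse 1, and Mmp14 on the side of a larger fall in mouse 2.

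Levels were compared between genes per kilobase of exon, since a longer transcript gives more reads. In YFP-negative Tregs the order was Adam8 at 138 ± 36.1, Mmp9 at 124 ± 0.934, Mmp11 at 32.1 ± 0.445, Mmp14 at 23.2 ± 0.513 and Mmp25 at 11.1 ± 1.58 normalized counts per kb (SD, n = 2 each). Adam8 and Mmp9 did not differ there beyond their spread, as Adam8 ranged from 112 to 163 around the Mmp9 values. In YFP-positive Tregs the order was Mmp11 at 89.3 ± 10.8, Adam8 at 28.8 ± 11.6, Mmp9 at 21.8 ± 2.01, Mmp14 at 5.88 ± 2.78 and Mmp25 at 0.998 ± 1.13 normalized counts per kb. Adam8, from 20.6 to 37.0, again overlapped Mmp9, from 20.4 to 23.2.

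The make-up of the 5 genes' transcripts is given as a description. In a table selected on this contrast, Mmp11 was higher and the others lower, so its share had to rise. The shares restate those fold changes and leave out the MMP and ADAM genes not analysed here. Mmp11 was 9.0% and 10.7% of the 5 genes' summed normalized counts per kb in the YFP-negative libraries of mice 1 and 2. In the YFP-positive libraries it was 65.1% and 56.4%. Mmp9 went from 35.2% and 40.6% to 15.6% and 14.1%, and Adam8 from 46.3% and 37.1% to 13.9% and 25.6%. The sum itself was 353 and 303 in YFP-negative and 149 and 145 normalized counts per kb in YFP-positive Tregs. The Mmp11 shares carry the uncertainty of the bases it shares with Chchd10.

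**Figure D4:**
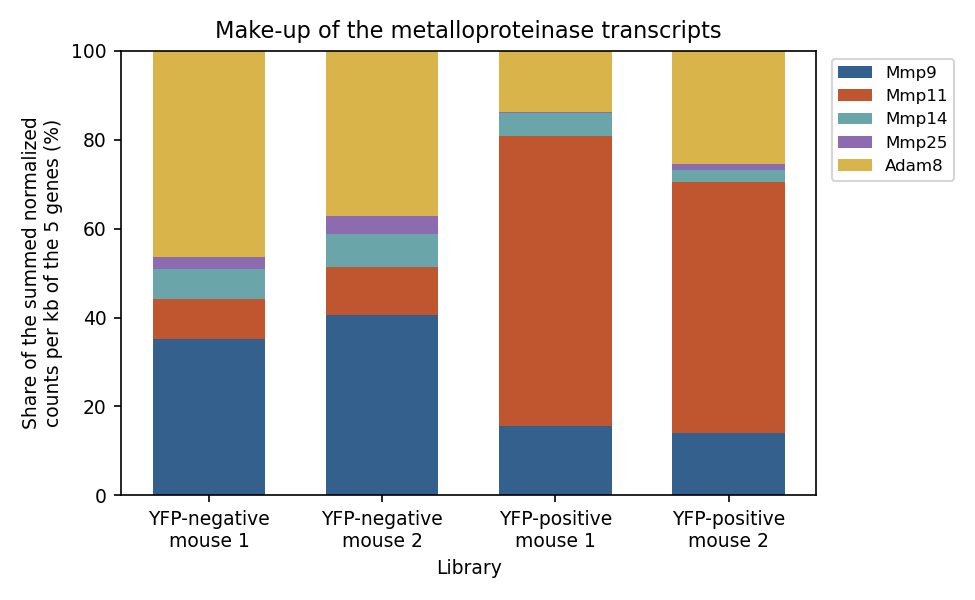
Share of each member in the summed normalized counts per kb of the 5 genes (vertical axis, percent) in each library. Mmp9 and Adam8 fill most of the YFP-negative bars, and Mmp11 takes 65.1% and 56.4% of the YFP-positive bars.

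The promoters are shown for the members in the RefSeq table (GRCm38.p6), since 3 of these genes were lower and 1 was higher. Mmp9 had no window there, so the promoter and motif counts do not cover it. Each line gives the 120 bases before the gene's start, 5′ to 3′ on the gene's strand, with capitals for the GC box GGGCGG on either strand.
Adam8 (chr7:139992563-139992682, minus strand): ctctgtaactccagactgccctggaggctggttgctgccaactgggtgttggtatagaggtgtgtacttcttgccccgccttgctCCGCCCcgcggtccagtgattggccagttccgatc
Mmp14 (chr14:54431478-54431597, plus strand): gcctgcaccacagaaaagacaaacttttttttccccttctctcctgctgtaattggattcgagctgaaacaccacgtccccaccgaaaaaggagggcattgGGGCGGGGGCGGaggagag
Mmp25 (chr17:23645270-23645389, minus strand): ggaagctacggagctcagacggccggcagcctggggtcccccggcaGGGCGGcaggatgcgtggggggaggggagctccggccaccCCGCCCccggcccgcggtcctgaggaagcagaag
Mmp11 (chr10:75932503-75932622, minus strand): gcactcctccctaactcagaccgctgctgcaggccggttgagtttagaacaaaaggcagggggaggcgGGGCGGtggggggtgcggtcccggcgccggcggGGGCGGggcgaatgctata
The upstream stretches hold 1 GC box in Adam8 and 2 each in Mmp14, Mmp25 and Mmp11, all within the bases shown. Over the windows from 250 bases before to 50 after the start, a GC box was found in 4 of 4 members, in 54.7% of the 192 listed genes with a window and in 35.9% of 27025 genes.

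Other motifs were searched on both strands in the same windows of 300 bases. The AP-1 motif TGANTCA was in 0 of the 4 members with a window and in 7.93% of all windows. The RUNX motif TGTGGT was in Mmp14 alone and in 16.9% of all windows, and the NF-kB motif GGGNNNNTCC was in Mmp25 alone and in 19.0%. The window holds 19 CpG dinucleotides in Mmp11, 18 in Mmp25, 10 in Mmp14 and 6 in Adam8, with a median of 12 over the listed genes and 7 over all genes. A match is a matter of letters in this window and says nothing of binding. The RefSeq start of Mmp11 lies 628 bases from the first base of Chchd10, which is transcribed away from it.

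Of 10 metalloproteinase inhibitor genes looked for, Timp2 was in the table. Timp2, an inhibitor that also takes part in the activation of pro-MMP2 by the Mmp14 protein, was counted at 1448 and 1558 in YFP-positive and at 4051 and 3166 normalized counts in YFP-negative Tregs of mice 1 and 2. It was lower in both mice, with a log2 fold change of -1.25 ± 0.35 (SE), less than that of any of the 4 lower members. Per kb of exon, Timp2 was 2.50 and 2.76 times the sum of the 5 members in the YFP-positive and 2.95 and 2.68 times in the YFP-negative libraries, so the values of the 2 populations overlapped. Against Mmp9 alone it was 16.0 and 19.6 times in YFP-positive and 8.36 and 6.60 times in YFP-negative libraries. The sum of the 5 members includes Adam8, an ADAM and not an MMP, and inhibition was not measured. Of 12 genes of activating proteases and the plasmin system, with Furin and Plau among them, 0 were in the table.

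Of 23 genes reported here for T cell surface and secreted proteins known as metalloproteinase substrates, 5 were in the table, and these 5 were lower in YFP-positive Tregs. This list was written with their values known and is not complete, so its count supports nothing. Lgals3, the gene for galectin-3, had a log2 fold change of -2.72 ± 0.43, and Havcr2, the gene for the inhibitory receptor TIM-3, one of -2.79 ± 0.53 (SE). The decoy receptor gene Il1r2 had -1.86 ± 0.38, Cd40lg had -1.33 ± 0.34, and the tumour necrosis factor receptor gene Tnfrsf1b had -1.09 ± 0.40. The values give RNA levels, and shedding of these proteins was not measured.

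**Figure D5:**
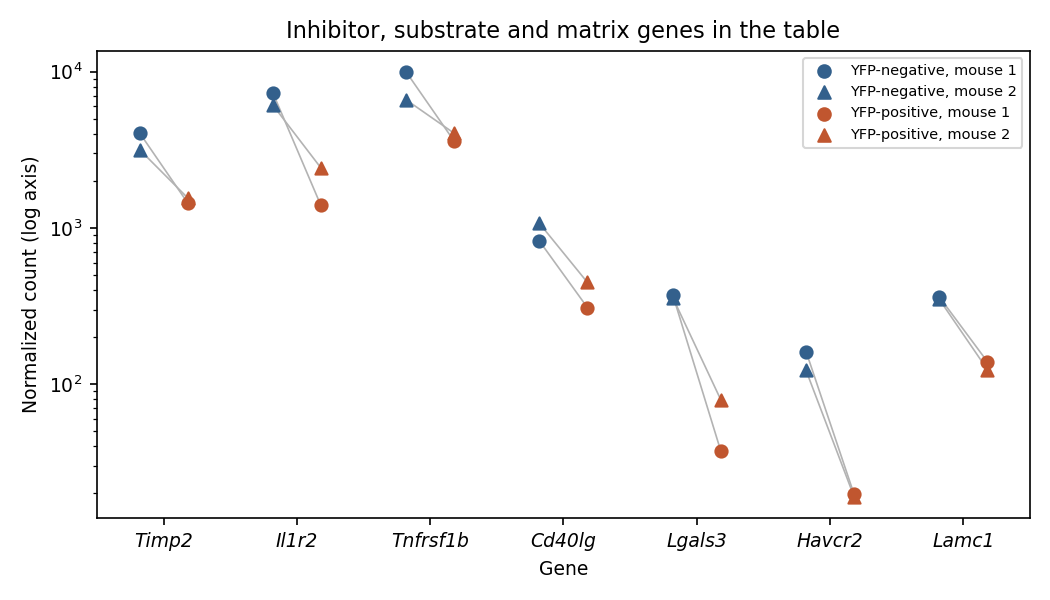
Normalized count (log axis) of the inhibitor gene Timp2, the 5 substrate genes and the laminin gene Lamc1 in the 4 libraries, with colours for the populations and symbols for mouse numbers. All 7 genes lie lower in YFP-positive Tregs in both mice. They come from lists written with earlier results known, and 69.5% of the listed genes were lower.

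Matrix genes and other protease genes were also looked for. Of 20 matrix protein genes, Lamc1, which encodes a laminin chain of basement membranes, was present, with a log2 fold change of -1.42 ± 0.38 (SE). Of 19 genes for other extracellular and granule proteases, Gzma and Gzmb were lower, at -3.23 ± 0.58 and -1.87 ± 0.34, and Ctsw, a cathepsin gene of cytotoxic lymphocytes, was higher at 1.72 ± 0.37 (SE). Of 15 integrin and migration genes, 0 were in the table. Of 16 genes for AP-1 and NF-kB family factors, Jun and Bach2 were higher, at 1.52 ± 0.39 and 1.26 ± 0.35, and Batf was lower at -1.22 ± 0.40 (SE).

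Per the labels, the cells were sorted as RFP-positive Tregs to a typical purity above 95%. Because Mmp9, Mmp25 and Adam8 are also abundant in myeloid cells, markers of other cells were looked for. Of 13 granulocyte, 8 monocyte and macrophage and 5 dendritic cell markers, 0 were in the table, so their levels have no value here. Of 6 B cell markers, Igkc was present and lower, at 249 and 280 against 1503 and 1072 normalized counts in mice 1 and 2. Of 5 natural killer cell markers, Gzma was present and lower, at 7.28 and 37.1 against 109 and 253. Pecam1, 1 of 7 stromal and endothelial markers, was higher, at 1443 and 1340 against 552 and 658. The part of other cells in the members' values was not tested. In bulk samples, fewer cells of a type and less RNA per cell cannot be told apart.

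The protein-coding genes most like each member were taken by the distance between log2 values over the 4 libraries, each centred on its own mean. They were G430095P16Rik and Jun for Mmp11, at distances of 0.11 and 0.11 against a median of 3.08 over the 246 genes compared. For Adam8 they were Racgap1, which encodes a cytokinesis protein, and Klrg1, a lectin-like inhibitory receptor gene, at 0.24 and 0.25 against a median of 1.16. For Mmp9 they were 5830411N06Rik and Nap1l3 at 0.30 and 0.32, for Mmp14 Lat2 and Renbp at 0.28 and 0.30, and for Mmp25 Rassf6 and Pxdc1 at 0.46 and 0.64. The medians were 1.27 for Mmp9, 1.34 for Mmp14 and 2.75 for Mmp25. The median for Mmp11 is large because 69.5% of all listed genes were lower, opposite to it. Rassf6 was as scarce as Mmp25, at 1.04 and 6.36 against 36.3 and 44.1 normalized counts. Every listed gene was selected on the same contrast, so this likeness over 4 libraries is a description only.

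The members lie on 5 chromosomes. The nearest other listed gene was 0.161 megabases away for Mmp14 (Abhd4), 0.255 for Adam8 (5830411N06Rik), 0.372 for Mmp9 (Wfdc2) and 0.882 for Mmp25 (Rab26). Abhd4, 5830411N06Rik and Rab26 were lower, at log2 fold changes of -1.67 ± 0.35, -2.72 ± 0.60 and -2.60 ± 0.46 (SE). Wfdc2 was higher at 2.75 ± 0.69, opposite to Mmp9. Its YFP-negative values stand for only 5 and 10 inferred reads in mice 1 and 2. The YFP-positive values of 5830411N06Rik stand for 12 and 10.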

How the data were processed

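RNA-seq was available for 4 Treg libraries, 2 YFP-positive and 2 YFP-negative. The submitters' processing notes name the mm10 build and the tools featureCounts 1.5.0-p3, HISAT2 2.0.5, DESeq2 1.16.1 and StringTie 1.3.3b, with no order or role, while the series' design text names DEGSeq. The deposited signal values are gene read counts that the authors divided by size factors. The deposited log2 fold changes, p-values and adjusted p-values are from the authors' own test. The coordinates and exon lengths of the 5 genes matched GENCODE M21.

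The 282 genes were fitted with limma 3.58.1 (R 4.3.3) on log2(value + 1) with a variance trend. The pseudocount shrinks changes of low genes (Mmp25 had a log2 fold change of -4.15 with a pseudocount of 0.1 and -3.68 with 1). A difference of mean log2 values need not equal the log2 ratio of group means. The step was tested on simulated data. No p-value is printed, because the genes had been selected on this contrast. Members and lists were chosen with earlier results of these data known. The named genes were the members, the list genes in the table, the 2 genes nearest in pattern to each member and its nearest listed neighbour. A further gene of the substrate list is not reported here.

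All values were whole multiples of a step per library within 0.001 reads (100% of 282), from which reads were inferred. The inferred reads in listed genes were between 196337 and 329350 per library, which is not the depth, and the depth is unknown. Libraries of the same mouse number deviated together, with a Pearson's r of 0.395 and a Spearman's rho of 0.411 over the listed genes, which are not replicates, and pairing rests on the mouse number in the titles.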

Additional observations from a re-analysis of the deposited data

How the results depend on the processing

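The alternatives left the 4 lower and 1 higher members as they were, except that Mmp25 has no value where a mean of at least 50 is required, which left 3 lower. That absence of reversals follows from the choice of genes whose groups do not overlap. Of 59 fold changes under the alternatives, 51 moved by less than the SD within groups and 8 by more. That tally is no measure of robustness. With 2 libraries a group, leaving out 1 cannot move a fold change by more than this SD. A block for the mouse number and the required mean do not move it at all. With a pseudocount of 10, the log2 fold change was -2.36 for Mmp9 and -2.22 for Mmp25, as a larger pseudocount shrinks low values. On reads before division by the size factors it was -2.65 for Mmp9 and 1.302 for Mmp11, where leaving out the scaling shifted the listed genes by a median of -0.16. It was 1.60 and 1.32 for Mmp11 and -2.97 and -1.60 for Adam8 within mouse 1 and mouse 2 alone. Leaving out 1 library gave -2.59 to -2.40 for Mmp9, 1.34 to 1.59 for Mmp11, -2.51 to -1.54 for Mmp14, -4.87 to -2.50 for Mmp25 and -2.70 to -1.87 for Adam8. These fits take the spread of the single library left from the other population. A replicate block for the mouse number left the fold changes as they were (Mmp9 -2.49), and the SE was 0.26 for Mmp9, 0.28 for Mmp11, 0.39 for Mmp14, 0.72 for Mmp25 and 0.37 for Adam8. Low reads limit Mmp25 most.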
